A study of Mus musculus with 16 samples.

Results

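Ribosomal protein (RP) genes encode the proteins of the cytosolic ribosome, and 89 of the 19715 genes in the deposited table belonged to the family by name. A gene counted as a member where its symbol starts with Rpl or Rps followed by a digit, or with Rplp or Rpsa, and kinases of the Rps6k family were left out. Of the 89 members, 77 were canonical RP genes, 46 of the large and 31 of the small ribosomal subunit. A further 7 were paralogs of a canonical gene, 4 carried the name of a pseudogene, and 1, Rps19bp1, encodes a protein that binds an RP and is not itself one. Rules that read measured values played no part in the choice.

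A ribosome holds a large subunit, which joins amino acids, and a small subunit, which reads the messenger RNA. Their proteins are made in matched amounts and assembled on ribosomal RNA in the nucleolus, and their messenger RNAs are among the most abundant of most cells. Many RP messenger RNAs start with a C followed by a run of pyrimidines, the 5′ terminal oligopyrimidine (TOP) motif, through which mTORC1 and the repressor Larp1 control their translation and stability. Resting lymphocytes are known for a high share of RP messenger RNA, and neutrophils for a low one.

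The RNA came from subcutaneous tumors of male C57BL/6 mice aged 8 weeks that had received NB9464D cells, a mouse neuroblastoma line, and were either wild type (WT) or lacked CD200R (KO), an inhibitory receptor of myeloid cells. The grafted line was the same in both hosts, so the genotype is that of the host, and 1 label writes CD200-/- in place of CD200R-/-. Tumors had been taken on day 28 and digested with type IV collagenase at 1 mg/mL, and either CD45+ leukocytes sorted from them (sorted) or all tumor cells (tumor) had been loaded for droplet-based 3′ single-cell RNA sequencing. The labels name 16 samples in 4 groups of 4, one group per genotype and preparation, whereas a cell is marked only with its group. Each group was therefore handled as 1 library without replicates, so differences between groups were not tested. Genotype cannot be told apart from animal, graft and cell preparation, and the intervals given below cover counting error only.

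Cd200r1, the targeted gene, had 2888 unique molecular identifiers (UMIs, each 1 captured RNA molecule) in the WT and 0 in the KO library of sorted cells, and 76 and 5 in those of all tumor cells. The 4 libraries held 4305 to 5897 cells and 29200338 to 103877007 UMIs, with a median of 3127 to 19850 UMIs per cell, and 42 to 72 cell barcodes were shared between any pair of them. The KO sorted library stood apart, with the fewest UMIs per cell, hemoglobin RNA at 3.49 CPM (a gene's UMIs relative to all those of the same cells) against 471 to 3025 CPM in the others, and an internal RP composition described below. The names of the 19 cell types are the authors' own. Cells named neuroblastoma were led by cell cycle genes, and in the sorted libraries they carried Ptprc, which encodes CD45, at 241 CPM in WT and 1006 CPM in KO, against 0.258 and 2.80 CPM in the tumor libraries. Cells named hematopoietic stem cells were led by mast cell and B cell markers, and cells named cancer stem cells by hemoglobin genes, but not in every library. In the tumor libraries the hematopoietic stem cells had Cma1, a mast cell marker, at 0 CPM in WT and KO. Cd79a, a B cell marker, was there at 1.45 CPM in WT and 11.5 CPM in KO. Col1a1, a fibroblast marker, was at 1123 and 555 CPM. Cancer stem cells of the KO sorted library had hemoglobin RNA at 0 CPM and 55.3% mitochondrial UMIs. Cells named fibroblasts and neuroblastoma shared markers in the tumor libraries. Hand2, a neuroblastoma marker, was at 181 CPM in WT and 333 CPM in KO fibroblasts, and at 154 and 245 CPM in neuroblastoma cells. Col1a1 was at 723 and 631 CPM in the fibroblasts and at 578 and 402 CPM in the neuroblastoma cells. None of the RP genes was among the 10 leading genes of any of the 19 types.

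RP genes took up 20.1% and 17.4% of all UMIs in the sorted WT and KO libraries and 31.6% and 27.0% in the tumor ones. Levels differed widely among the members. Rpl13, a protein of the large subunit, had the most UMIs over the 4 libraries, 1975454, or 2.52% of all RP UMIs. Rps24 had 1962907 and Rpl41, which encodes the shortest RP, with 1751281 UMIs. Rpl31 had the fewest of the canonical genes, 294836 UMIs or 0.377% of RP UMIs. All 77 canonical genes had at least 20 UMIs over the WT and KO libraries of each comparison, so none was lost to the filter on low counts. The paralogs and pseudogenes ranged more widely, from 17 UMIs of Rpl9-ps1, 97 of Rpl3l and 109 of Rpl39l to 145945 of Rps27l, 220453 of Rpl36al and 245467 of Rpl22l1. RP genes have near-identical pseudogenes in the genome, and how reads were split between such copies is not given in the sources used here, so the values of Rps27rt (36970 UMIs), Rpl9-ps6 (26132), Rpl10-ps3 (23063) and Rpl36a-ps1 (5192) are uncertain.

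Pyrimidine runs at the transcription start were looked up in RefSeq sequence of mouse build GRCm38.p6, where 57 of the 77 canonical genes had a start. A run was scored where a C followed by at least 4 further C or T bases began within 5 bases of the start on the gene's own strand. It was present in 27 of 57 canonical RP genes (47.4%), against 21.2% of the 27025 genes of the RefSeq table and 24.6% of the mitochondrial RP genes with a start. With the run required to begin exactly at the start the shares of the canonical genes and of all genes were 22.8% and 3.01%. Within 20 bases of the start they were 80.7% and 53.3%. The 4 windows below each cover 10 bases before the start and 20 from the start on, and are shown because these genes lie at the low and high ends of the genotype comparison, 1 with and 1 without a run at each end. Capitals mark the run. Rpl15 (chr14:18270967-18270996, minus strand) and Rps3 (chr7:99483690-99483719, minus strand) were lower in the KO sorted library. Rpl38 (chr11:114668570-114668599, plus strand) and Rps28 (chr17:33824543-33824572, minus strand) were higher there.
Rpl15: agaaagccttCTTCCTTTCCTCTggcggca
Rps3: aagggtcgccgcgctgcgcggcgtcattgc
Rpl38: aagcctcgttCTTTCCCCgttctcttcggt
Rps28: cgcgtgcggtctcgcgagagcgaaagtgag
A start annotated some bases away from the one used in these cells would hide a run, so the absence of a match says only that these letters are not in this window.

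In the sorted libraries CD8 and CD4 T cells had the highest and neutrophils the lowest share of RP RNA. In the WT sorted library RP genes took up 44.1% of the UMIs of CD8 T cells (44.0 to 44.2, Clopper-Pearson), 41.7% of CD4 T cells, 33.2% of CD8+ effectors, 31.0% of B cells, 28.1% of regulatory T cells and 26.2% of NK cells. Among myeloid cells of the same library the share was 19.9% in myeloid dendritic cells, 16.1% in M2 macrophages, 14.5% in M1 macrophages and 4.31% in neutrophils. Cells named fibroblasts had 32.1%, neuroblastoma 23.1%, hematopoietic stem cells 22.6% and cancer stem cells 12.5%. Every lymphocyte type was thus above every myeloid type in this library, 24 of 24 pairs. The order was kept in 35 of 36 pairs of the KO sorted library, where regulatory T cells (16.7%) were below CD11c+ resident dendritic cells (17.5%). It was kept in 11 of 12 pairs of the KO tumor and 1 of 2 pairs of the WT tumor library, and both exceptions were pairs with M2 macrophages.

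Cells named M2 macrophages in the tumor libraries had 34.5% RP UMIs in WT and 21.8% in KO, against 16.1% and 15.3% in the sorted libraries. RNA of other cells moved with this difference. In the WT tumor library all 7 fibroblast markers had UMIs in these cells, with a summed level of 1389 CPM, against 393 CPM in the KO tumor (Col1a2 at 0), 25.6 CPM in the KO sorted (Dpt at 0) and 7.51 CPM in the WT sorted library (Pdgfra at 0). Col1a2 was low also in tumor cells named fibroblasts of KO, at 1.86 CPM against 437 CPM in WT. The WT and KO tumor sums are thus not fully alike as measures of fibroblast RNA. The 9 macrophage markers all had UMIs in the 4 libraries and summed to 3279 CPM in the WT tumor, 8462 CPM in the KO tumor, 9713 CPM in the KO sorted and 19314 CPM in the WT sorted library. Ptprc was at 46.8 CPM in the WT tumor and 520 CPM in the WT sorted library. The part of this RNA in the RP share was not tested.

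**Figure D1:**
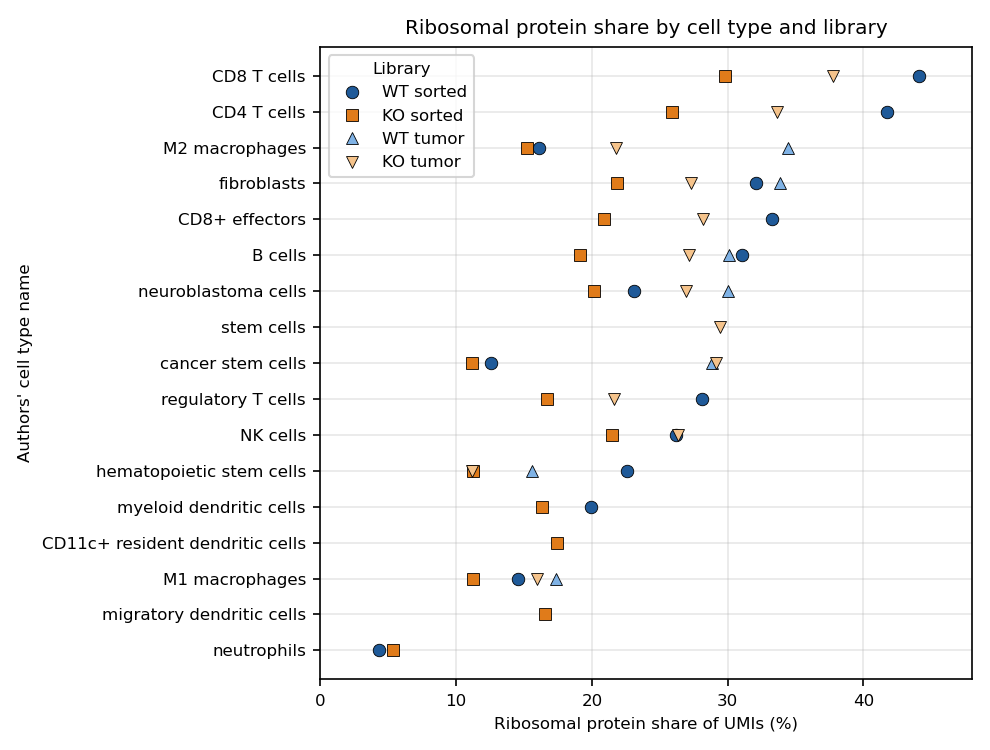
Share of UMIs from RP genes (horizontal axis, percent) by cell type (vertical axis), with 1 point for each library that held at least 50 cells of the type. CD8 and CD4 T cells of the WT sorted library lie farthest right, at 44.1% and 41.7%, neutrophils farthest left, at 4.31% and 5.31%, and KO points lie left of the WT points in 13 of 14 sorted and 6 of 7 tumor cell types.

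RP RNA made up a smaller share of UMIs in the KO than in the WT library in 13 of the 14 cell types compared between the sorted libraries. CD4 T cells had 41.7% in WT and 25.9% in KO, a difference of -15.8 percentage points, and CD8 T cells had 44.1% and 29.8% (-14.3 points). CD8+ effectors differed by -12.3, B cells by -11.9, regulatory T cells by -11.4, hematopoietic stem cells by -11.4 and fibroblasts by -10.2 points. The differences were smaller in NK cells (-4.70 points), myeloid dendritic cells (-3.60), M1 macrophages (-3.30), neuroblastoma cells (-2.91), cancer stem cells (-1.36) and M2 macrophages (-0.815). Over all cells neutrophils alone had the higher share in KO, 5.31% against 4.31% in WT. Some differences turned to higher in KO under an alternative. Neuroblastoma cells turned to 2.16 points without doublet candidates. Cancer stem cells turned to 0.909 and M2 macrophages to 1.34 points against genes of at most 1300 coding bases. CD8+ effectors (8.07 points), NK cells (1.21) and hematopoietic stem cells (0.659) turned in a bin of shallow cells. For hematopoietic stem cells this bin, of under 2000 UMIs, held 270 of 445 WT and 365 of 457 KO cells. The lymphocyte types other than NK cells thus differed by more points than any myeloid type. Other RNA moved with several of these differences. In cells named hematopoietic stem cells the 6 B cell markers, all with UMIs, summed to 9063 CPM in WT and 5012 CPM in KO, and the 4 mast cell markers, all with UMIs, to 371 and 1504 CPM. In cells named cancer stem cells hemoglobin RNA was at 206933 CPM in WT and 0 in KO, and without hemoglobin and mitochondrial UMIs the difference was -4.94 points. Cells named neuroblastoma had Ptprc at 241 CPM in WT and 1006 CPM in KO, and Cma1 at 0 and 114 CPM. M2 macrophages had Ptprc at 520 and 999 CPM and Hbb-bs, a hemoglobin gene, at 620 and 0.269 CPM. Without hemoglobin and mitochondrial UMIs the difference in M2 macrophages was -0.706 points. The part of the B cell, mast cell and Ptprc RNA was not tested. As a ratio the KO share was between 0.497 times the WT share in hematopoietic stem cells and 1.23 times in neutrophils.

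Single cells were shifted by an amount that differed between lymphocyte types. The middle 50% of B cells lay between 28.2% and 33.7% in WT and between 16.7% and 20.9% in KO, so these ranges did not overlap. The ranges were 37.8% to 44.4% and 22.7% to 29.1% in CD4 T cells and 41.5% to 47.5% and 26.4% to 32.4% in CD8 T cells, again without overlap. In CD8+ effectors they overlapped, with 22.4% to 38.9% in WT and 15.6% to 23.2% in KO, as they did in NK cells, with 15.3% to 30.3% and 14.7% to 23.9%. M2 macrophages also overlapped, with 11.9% to 19.2% in WT and 11.3% to 16.5% in KO. Cells named hematopoietic stem cells were spread widely in WT, with a middle 50% from 4.03% to 28.9%. Cells of 1 library are not replicates, and these ranges describe the libraries alone.

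In the tumor libraries RP RNA was a smaller share in KO in 6 of 7 cell types. WT B cells had 30.1% (29.8 to 30.4) and KO B cells 27.2% (27.0 to 27.3), a difference of -2.95 points against the -11.9 points of the sorted B cells. Most tumor B cells were shallow, 52 of 58 in WT and 309 of 327 in KO having under 2000 UMIs, and at that depth the shares were 31.9% and 27.1% in the tumor against 19.4% and 18.2% in the sorted libraries, so the order of the 2 differences depends on depth. M1 macrophages had 17.4% and 15.9%, neuroblastoma cells 30.0% and 27.0%, fibroblasts 33.9% and 27.3%, hematopoietic stem cells 15.6% and 11.2% and M2 macrophages 34.5% and 21.8%. These hematopoietic stem cells had 35.8% mitochondrial UMIs in WT and 40.4% in KO, and hemoglobin RNA at 9425 and 47.4 CPM. Without mitochondrial and hemoglobin UMIs the difference in hematopoietic stem cells was -5.94 points. Cancer stem cells had 28.9% in WT and 29.2% in KO. The T cell and NK cell types had at least 50 cells only in the KO tumor library, with 37.7% in CD8 T cells, 33.6% in CD4 T cells, 28.2% in CD8+ effectors, 26.3% in NK cells and 21.6% in regulatory T cells.

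The same cell type had a higher RP share in the tumor than in the sorted preparation in most cases. Of 19 pairs of a genotype and a cell type, 3 had the higher share in the sorted library, WT B cells and the hematopoietic stem cells of both genotypes. The ratio of the tumor to the sorted share reached 2.30 in WT and 2.61 in KO cancer stem cells, and was 1.42 in KO B cells, 1.30 in KO CD4 T cells and 0.971 in WT B cells. How much of this follows from the preparation and how much from the cells given each name cannot be told apart.

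Depth and mitochondrial RNA moved with the genotype in the sorted libraries. The median B cell had 3118 UMIs in WT and 2168 in KO, with 5.05% and 8.15% mitochondrial UMIs, and fibroblasts had 5.59% and 10.5%. Neutrophils, in which the RP share was higher in KO, had 8.46% mitochondrial UMIs in WT and 4.97% in KO. Within bins of equal depth that held at least 20 cells of each library, the KO share was lower in 27 of 32 bins of the sorted and in 13 of 15 bins of the tumor libraries. B cells of 2000 to under 5000 UMIs had 31.2% in WT and 19.2% in KO, whereas those of 500 to under 2000 UMIs had 19.4% and 18.2%. CD8 T cells of 5000 to under 10000 UMIs had 44.8% and 31.8%, and tumor neuroblastoma cells of 10000 to under 20000 UMIs had 31.2% and 24.4%. M1 macrophages of the sorted libraries were lower in KO in all 5 bins. In the sorted CD8+ effectors of 500 to under 2000 UMIs the KO share was the higher one, 12.6% against 4.54%. The bins are wide, and the part of depth in the difference was not tested further. With mitochondrial and hemoglobin UMIs left out of the denominator the KO share was lower in 13 of 14 sorted and 7 of 7 tumor types, and the difference was -11.8 points in sorted B cells and -9.56 in sorted fibroblasts.

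**Figure D2:**
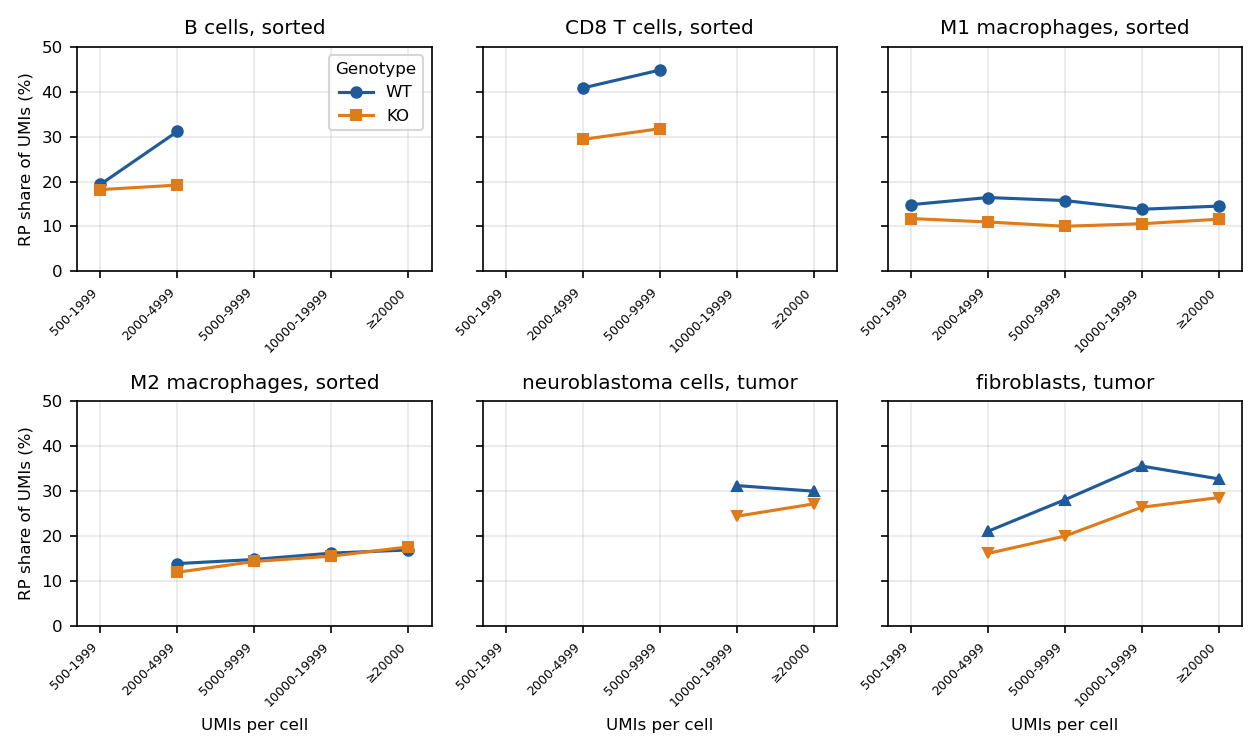
RP share of UMIs (vertical axis, percent) in bins of UMIs per cell (horizontal axis) for WT and KO cells of 4 sorted and 2 tumor cell types, shown for bins with at least 20 cells in both libraries. KO lies below WT in all bins drawn except M2 macrophages of at least 20000 UMIs, as for B cells of 2000 to under 5000 UMIs with 31.2% and 19.2%.

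The members did not fall by 1 common factor. Ratios of single genes were taken as the log2 of KO over WT CPM, where a ratio of -1 is a level in KO of 1 part in 2. The 77 canonical genes had a median log2 ratio between -1.19 (hematopoietic stem cells) and 0.19 (neutrophils) in the 14 sorted types and between -0.67 and 0.00 in the 7 tumor types. The median of all genes measured was above 0, at 0.19 to 0.57 over sorted types and 0.21 to 0.41 over tumor types. Relative to that median gene the canonical RP genes had medians of -1.55 to -0.31 over sorted types and -1.08 to -0.32 over tumor types.

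Lymphocytes were among the types with the most members below the 1.5-fold line. In sorted B cells 51 of the 77 canonical genes were at least 1.5-fold lower in KO and 3 at least 1.5-fold higher, where 15.3% and 43.6% of all genes measured in these cells were. In the following counts the percentages in parentheses are likewise those of all genes measured. CD8+ effectors had 50 lower and 3 higher (12% and 43.8%), regulatory T cells 50 and 3 (12.6% and 42%), CD4 T cells 49 and 3 (13.8% and 48.8%), CD8 T cells 46 and 5 (11% and 49.3%) and NK cells 31 and 7 (16.2% and 40.4%). In every lymphocyte type the members below the line were thus a larger share than in the background and those above it a smaller one.

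Of the sorted myeloid types, M1 macrophages had 37 lower and 3 higher (13.4% and 35.5%), myeloid dendritic cells 29 and 3 (9.06% and 30%) and M2 macrophages 17 and 9 (10.8% and 38.9%). Neutrophils alone had more members above than below the line, 5 lower and 18 higher (16.6% and 47.1%), and this turned to 31 lower and 6 higher relative to the median gene (29.8% and 29.5%). Hematopoietic stem cells had 58 and 0 (16.5% and 39.7%), fibroblasts 45 and 1 (15.8% and 42.7%), cancer stem cells 29 and 8 (22.9% and 35.3%) and neuroblastoma cells 24 and 6 (17.6% and 36.1%). Relative to the median gene, the share of higher among the members past the line moved by over 10 percentage points, or the lower count by over 1.5 times, also in myeloid dendritic cells, with 47 and 0 (17.3% and 17.3%), M2 macrophages, with 41 and 3 (22.2% and 19.2%), NK cells, with 47 and 2 (27.7% and 24.6%), cancer stem cells, with 39 and 5 (28.3% and 28.8%), and neuroblastoma cells, with 37 and 1 (26.7% and 25.5%).

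In the tumor libraries M2 macrophages had 49 lower and 0 higher (11.3% and 41.5%), hematopoietic stem cells 31 and 0 (13.9% and 29.8%), fibroblasts 11 and 0 (9.79% and 32.4%), neuroblastoma cells 5 and 0 (11.1% and 24.3%), M1 macrophages 2 and 0 (7.55% and 30.3%) and cancer stem cells 0 and 0 (5.7% and 38.2%). B cells had 1 and 1 (9.38% and 39.1%), and 18 and 0 relative to the median gene (20.3% and 27.1%). By total UMIs the members below the line were thus a larger share than in the background in M2 macrophages, hematopoietic stem cells and fibroblasts and a smaller one in the other 4 types. Scaled to the median gene, 50 members were lower and 0 higher in hematopoietic stem cells (20.9% and 19.9%), 38 and 0 in fibroblasts (16.6% and 19.3%), 16 and 0 in M1 macrophages (14.5% and 19.3%), 13 and 0 in neuroblastoma cells (16.2% and 16.4%) and 10 and 0 in cancer stem cells (15.7% and 23.7%). On that scale the lower members were a smaller share than in the background in cancer stem cells and close to it in neuroblastoma and B cells.

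In the majority of the 14 sorted types, 41 of the 77 canonical genes were at least 1.5-fold lower in KO, against a background of 15.2% of the 1998 genes measured in all 14. The opposite direction held for 4 genes, Rpl23a, Rpl37a, Rps15 and Rps28, against a background of 24%. A ratio below 0 in every one of the 14 types was found for 35 canonical genes (background 12%), and a ratio above 0 in every type for 2, Rpl23a and Rps28 (22.2%). Relative to the median gene 50 were lower in the majority of types (33.1%), 51 were below 0 in every type (25.7%) and 0 were higher in the majority (10.5%) or above 0 in every type (10.2%). In the tumor libraries 5 were at least 1.5-fold lower in the majority of the 7 types, namely Rpl15, Rpl37a, Rpl7, Rpl8 and Rps24 (background 1.76% of 2559 genes), and 0 were higher (18.9%). A ratio below 0 in every one of the 7 types was found for 29 (3.56%) and one above 0 for 0 (26.7%). Relative to the median gene 26 were lower in the majority (7.39%) and 68 below 0 in every type (13.8%), and 0 were higher (5.67%) or above 0 throughout (9.03%).

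**Figure D3:**
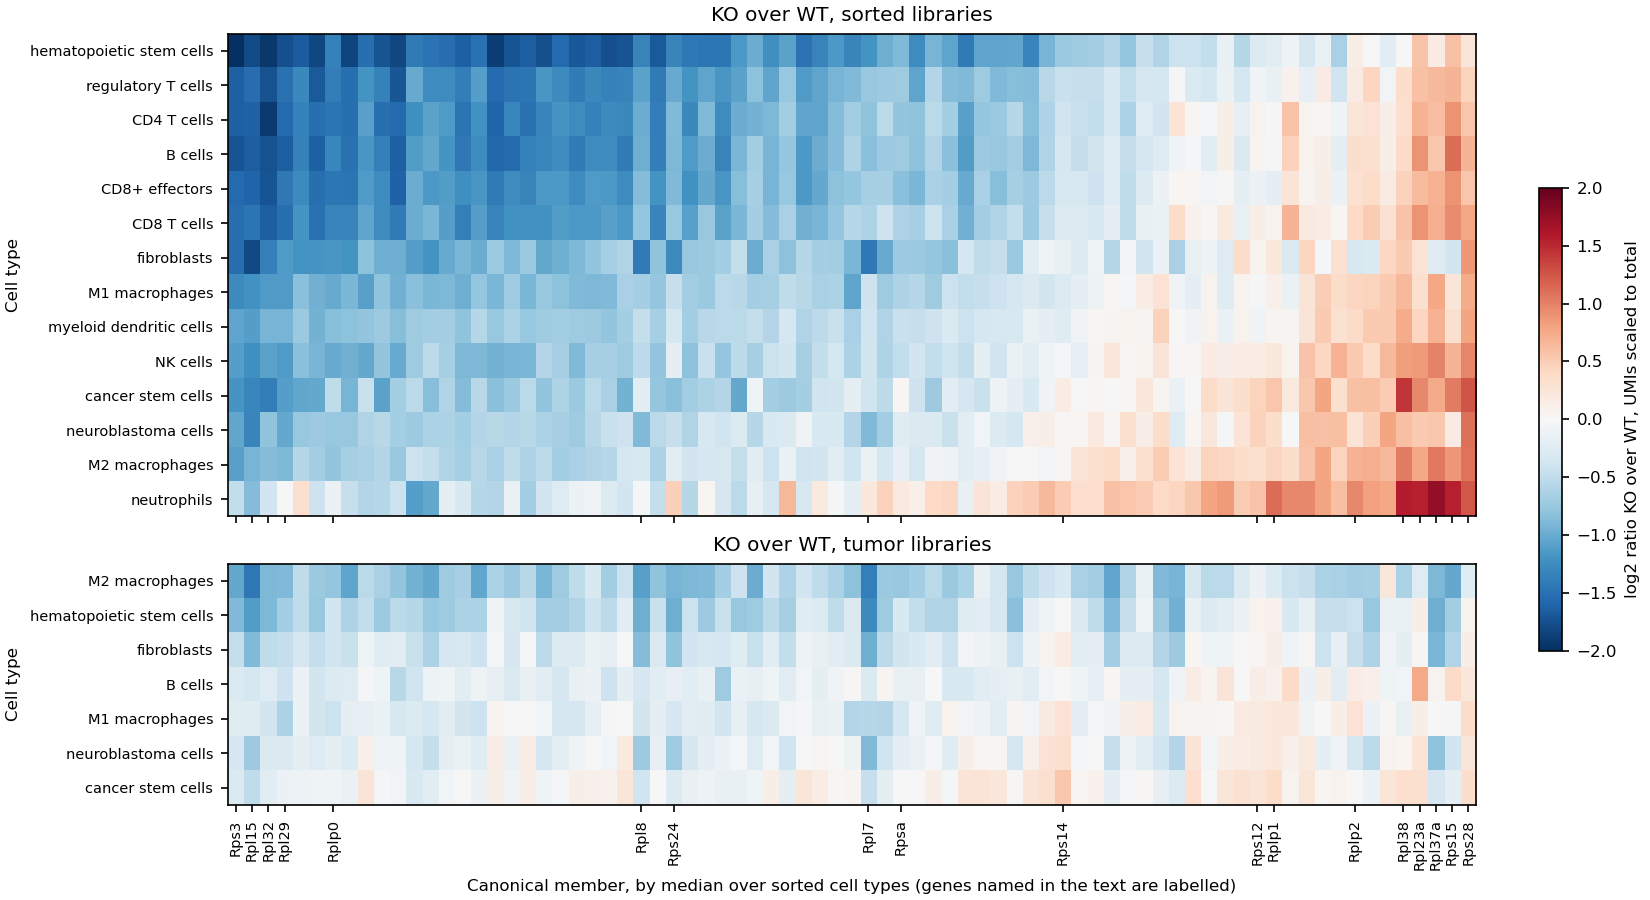
Log2 ratio of KO over WT by total UMIs (color, blue lower and red higher in KO) of the 77 canonical RP genes (horizontal axis, ordered by the median over sorted types) in each sorted and tumor cell type (vertical axis). Rps3 and Rpl15 at the left end have sorted medians of -1.40 and -1.39, Rps15 and Rps28 at the right end have 0.78 each, and the tumor types are paler.

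Of the small subunit, Rps3 (ENSMUSG00000030744, chromosome 7, 99477896 to 99483738, minus strand, GRCm38) had the lowest median ratio over the sorted types, -1.40, with a range from -2.07 to -0.49. Its protein lies at the site where messenger RNA enters the ribosome. In B cells Rps3 had 3789 and 1146 CPM in the sorted WT and KO libraries and 4003 and 3263 CPM in the tumor ones. The KO sorted library was thus low and the other 3 were closer together, with a log2 ratio of -1.73 (-1.79 to -1.66, conditional binomial) between the sorted libraries and -0.30 (-0.46 to -0.12) between the tumor libraries. In M1 macrophages Rps3 had 1957, 810, 2392 and 2017 CPM in the same order, and in fibroblasts 3983, 1388, 4499 and 3218 CPM.

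Rps28 (ENSMUSG00000067288, chromosome 17, 33819027 to 33824562, minus strand), another small-subunit gene, had the opposite pattern, with a median of 0.78 (0.24 to 1.25) over the sorted types. In B cells it had 2837 and 4567 CPM in the sorted WT and KO libraries and 2041 and 2378 CPM in the tumor ones. M2 macrophages had 1709, 3610, 2608 and 2211 CPM. The KO sorted value was the highest of the 4 in both types. In the tumor libraries the median ratio of Rps28 was 0.22, also the highest of the canonical genes, and below 0 relative to the median gene. Rps15, another gene of the small subunit, had 1152 and 2499 CPM in sorted WT and KO B cells (ratio 1.12), and its ratios ran from -0.38 in fibroblasts to 1.55 in neutrophils.

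Of the large subunit, Rpl15 (ENSMUSG00000012405, chromosome 14, 18267823 to 18271391, minus strand) had a median of -1.39 (-1.80 to -0.86) in the sorted and -0.73 in the tumor types, so it was among the lowest in both preparations. In fibroblasts Rpl15 had 4577 and 1314 CPM in the sorted WT and KO libraries and 5237 and 2834 CPM in the tumor ones. Both KO libraries were below both WT libraries. Rpl32 had 8414 and 2686 CPM in sorted WT and KO CD8 T cells and a median of -1.38 over the sorted types, and Rpl29 had a median of -1.13. Rpl7 had the lowest median of the tumor types, -0.89, with 5132 CPM in WT and 2778 CPM in KO neuroblastoma cells. Rpl8 (-0.73) and Rps24 (-0.72) were also among the 5 lowest there, and Rps28, Rps14 (0.15), Rpl23a (0.14), Rps12 (0.13) and Rplp1 were the 5 highest, all of them below 0 relative to the median gene.

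Rpl37a (ENSMUSG00000046330, chromosome 1, 72711290 to 72713813, plus strand) went in opposite directions in the 2 preparations by its median and in some cell types, but not in all. In M2 macrophages it had 2457 and 5118 CPM in the sorted WT and KO libraries and 5484 and 2946 CPM in the tumor ones. In neuroblastoma cells it had 3643, 5301, 4513 and 2580 CPM in the same order. In these 2 types the KO value was thus the higher one in the sorted and the lower one in the tumor libraries. Cells of these names were unlike in the 2 preparations. Ptprc was at 520 CPM in WT sorted and 46.8 CPM in WT tumor M2 macrophages. In WT neuroblastoma cells it was at 241 CPM in the sorted and 0.258 CPM in the tumor library. Over unlike sets of 14 sorted and 7 tumor types, the median ratio of Rpl37a was 0.69 (-0.25 to 1.77) and -0.81 (-0.98 to 0.07). In fibroblasts it was lower in KO in both, with 5773 and 4840 CPM in the sorted and 5162 and 2753 CPM in the tumor libraries. Tumor B cells and M1 macrophages did not go with the tumor median. As a share of canonical RP UMIs, Rpl37a was there at 1.51% in WT and 1.76% in KO B cells. In tumor M1 macrophages it was at 1.42% in WT and 1.56% in KO. The difference between preparations was not tested. Rpl23a and Rpl38 had sorted medians of 0.67 and 0.58, and 0.23 and 0.22 relative to the median gene.

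The proteins of the stalk, which calls translation factors to the ribosome, moved apart from one another. Rplp0, its base, had a median of -1.09 and was below 0 in 14 of 14 sorted types, with 3520 CPM in WT and 1432 CPM in KO B cells. Rplp1 had a median of 0.08, with 4781 and 4698 CPM in B cells, and was below 0 in 5 types. Rplp2 had a median of 0.37, with 2810 and 3597 CPM in B cells, which turned to -0.04 relative to the median gene. Rpsa, a small-subunit protein also known as the laminin receptor, had a median of -0.62 and was below 0 in 12 types, with 5840 and 3578 CPM in B cells. In the tumor types the medians were -0.38 for Rplp0, 0.11 for Rplp1, -0.33 for Rplp2 and -0.30 for Rpsa.

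When each gene was expressed as a share of canonical RP UMIs, the KO sorted library differed from the other 3 in B cells for most of the genes named here. Rps3 made up 1.23% of the canonical RP UMIs of B cells in the WT and 0.603% in the KO sorted library, and 1.34% and 1.21% in the tumor libraries. In the same order, Rpl32 had 1.75%, 0.848%, 1.66% and 1.55%. In the other direction, Rps28 had 0.922%, 2.40%, 0.682% and 0.883%, Rpl37a 1.80%, 4.26%, 1.51% and 1.76%, and Rps15 0.374%, 1.32%, 0.382% and 0.551%. Rpsa was near constant at 1.90%, 1.88%, 1.93% and 1.94%. In M1 macrophages Rps3 had 1.37%, 0.732%, 1.40% and 1.28%, and Rpl38 in fibroblasts had 2.52%, 5.31%, 2.03% and 2.22%. The KO sorted library did not stand apart for every gene and type: Rpl38 had 1.01%, 2.16%, 2.01% and 2.05% in M2 macrophages and 1.12%, 2.26%, 2.69% and 3.44% in hematopoietic stem cells, and Rps15 had 0.859%, 0.969%, 0.969% and 0.787% in fibroblasts. With 1 KO sorted library, what belongs to the genotype and what to that library cannot be told apart.

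Between the cell types of the WT sorted library some members varied far more than others within the RP pool. Rps27 varied most, from 0.779% of canonical RP UMIs in neuroblastoma cells to 3.48% in neutrophils, a ratio of 4.47. Rps9 ran from 1.07% in fibroblasts to 3.86% in neutrophils, Rpl38 from 0.853% in CD4 T cells to 2.52% in fibroblasts and Rpl31 from 0.171% in CD8 T cells to 0.484% in fibroblasts. The steadiest were Rpl18, Rps3, Rpl27a, Rps23 and Rps10, whose highest share was 1.17 to 1.25 times the lowest. Rps3 was thus among the steadiest members between cell types of 1 library and had the lowest ratio between the sorted libraries. The UMIs of the large subunit were 1.09 to 1.41 times those of the small subunit over the types of the WT sorted library and 1.03 to 1.37 times in the KO sorted library.

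RP genes are short, and the ratio of genes in general moved with length. The canonical genes have coding sequences of 75 (Rpl41) to 1257 bases (Rpl4) with a median of 456, and 74 of 77 have at most 900 bases, against a median of 1332 bases over 15780 other genes. In the sorted types the other genes of at most 300 coding bases had median log2 ratios of -0.52 to 0.02, and those over 2700 bases had 0.52 to 1.23. In the tumor types these were -0.07 to 0.48 and 0.40 to 1.08.

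Within the family the shortest genes had the highest ratios in the sorted types. The 9 canonical genes of at most 300 bases had median ratios of -0.22 to 0.81 over the sorted types, the 19 of over 450 to 600 bases had -1.63 to -0.18, and the 19 of over 600 to 900 bases had -1.19 to -0.13. Only 3 members are longer, 1 of over 900 to 1200 bases with -1.46 to -0.12 and 2 of over 1200 bases with -1.37 to -0.36. Among genes of at most 900 bases the median of the canonical genes was below that of the others in 13 of 14 sorted types, by a difference of -0.95 to 0.11, and in 7 of 7 tumor types, by -1.01 to -0.17. In the sorted types the sign depended on the bin. At 300 bases or less the canonical median was above that of the others in every type, as in B cells with 0.11 against -0.52. At over 300 to 450 bases it was above in M2 macrophages, NK cells, neuroblastoma cells and neutrophils and below in the rest. Over 450 bases it was below in every type. With total UMIs of genes of at most 1300 coding bases as the denominator, the number of canonical genes at least 1.5-fold lower in the majority of sorted types was 25 in place of 41. The part of length in the single ratios was otherwise not tested.

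**Figure D4:**
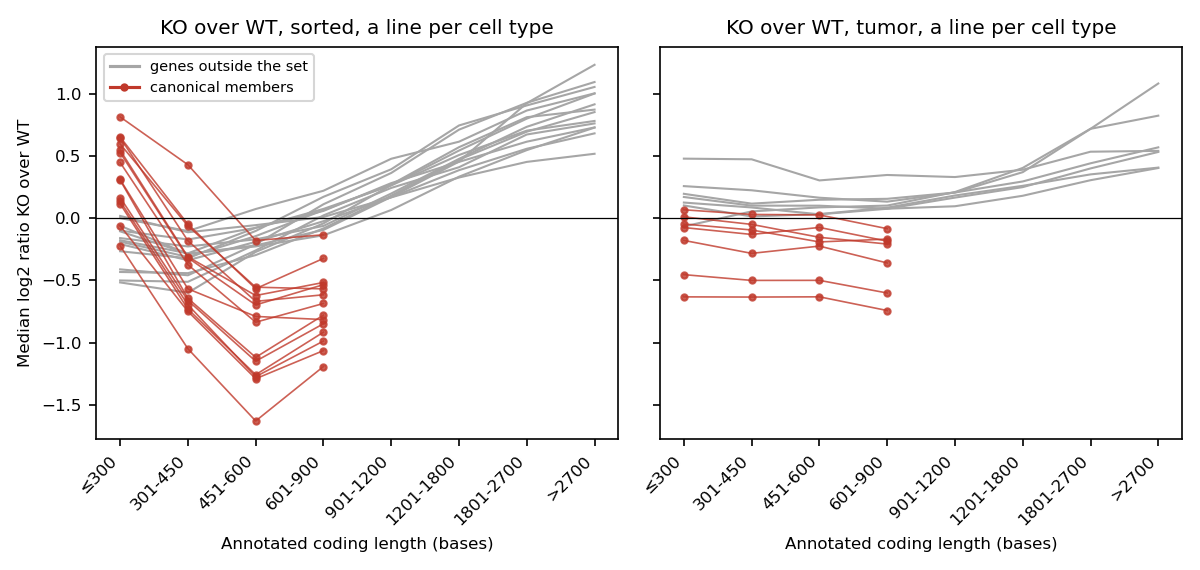
Median log2 ratio of KO over WT (vertical axis) by bin of coding length in bases (horizontal axis) for canonical RP genes (red) and all other genes (grey), 1 line for each sorted or tumor cell type. In the sorted types other genes rise from between -0.52 and 0.02 in the shortest bin to between 0.52 and 1.23 in the longest, and canonical genes go from between -0.22 and 0.81 at up to 300 bases to between -1.19 and -0.13 at 600 to 900 bases.

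Canonical genes with and without a pyrimidine run scored within 5 bases of the start had similar median ratios. The 27 canonical genes with a run had a median of -0.66 over the sorted types (-1.39 to 0.58), and the 30 without had -0.63 (-1.40 to 0.78). In the tumor types the medians were -0.22 and -0.28. Within 20 bases of the start 46 of 57 canonical genes held a run, so the group without one depends on the window. Whether the run goes with the ratio was not tested further. The windows printed above were picked to hold 1 gene with and 1 without a run at each end, so they illustrate the ranges and support nothing. Rps15 and Rpl37a, which rank above Rpl38, hold no run in their windows.

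Rpl22l1 (ENSMUSG00000039221, chromosome 3, 28805436 to 28807424, plus strand), a paralog of Rpl22 that can replace it in the ribosome, was lower in KO in 14 of 14 sorted and 6 of 7 tumor types. In fibroblasts Rpl22l1 had 1359 and 481 CPM in the sorted WT and KO libraries and 1303 and 712 CPM in the tumor ones. In neuroblastoma cells it had 937, 504, 1120 and 469 CPM. Cells of these names shared Hand2 and Col1a1 RNA in the tumor libraries, so they may not be distinct cell types. Both KO libraries were below both WT libraries for Rpl22l1 under each name, and its median ratio was -0.87 over sorted and -0.90 over tumor types. As a share of the UMIs of Rpl22l1 and Rpl22 together it also differed, with 38.7% and 19.1% in sorted WT and KO fibroblasts and 37.95% and 24.2% in those of the tumor libraries. In neuroblastoma cells the shares were 37.0%, 22.6%, 37.1% and 16.8%, and the 2 tumor intervals (36.8 to 37.3 and 16.6 to 17.0) lie far apart. The share differed little in CD8 T cells, with 33.3% (32.1 to 34.5) in WT and 31.4% (29.7 to 33.2) in KO sorted cells, and in tumor B cells it was 25% (19.7 to 30.9) in WT and 26.7% (24.1 to 29.4) in KO.

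**Figure D5:**
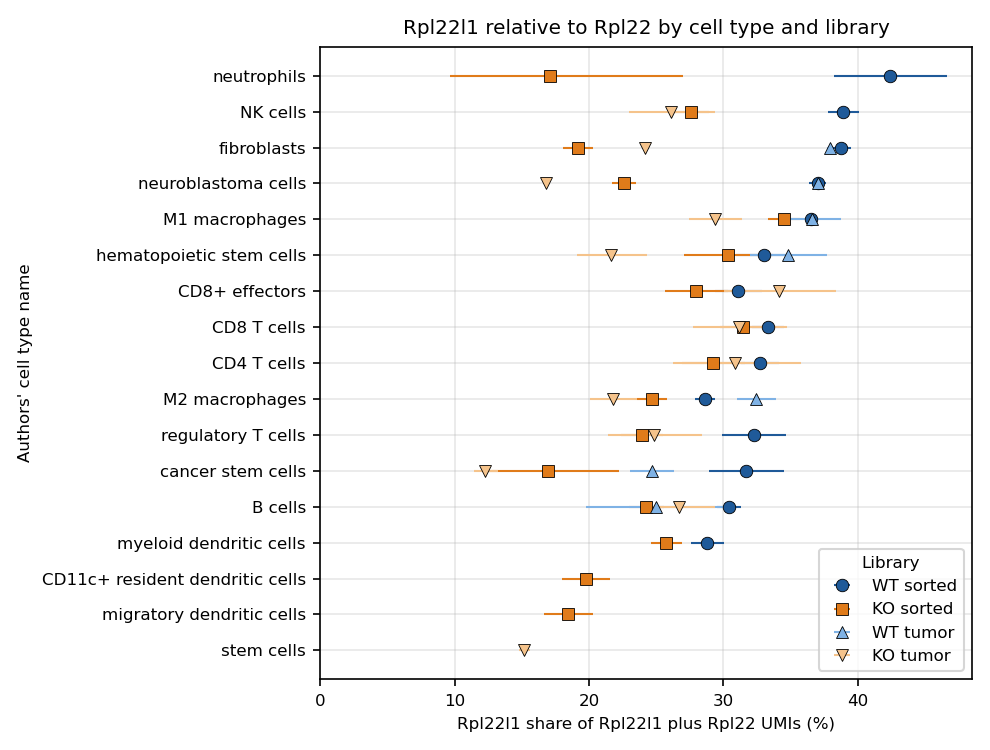
Share of Rpl22l1 in the UMIs of Rpl22l1 and Rpl22 together (horizontal axis, percent) by cell type (vertical axis) and library, with bars for 95% Clopper-Pearson intervals for counting error. In fibroblasts the WT libraries lie at 38.7% and 37.95% and the KO libraries at 19.1% and 24.2%.

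The other paralogs differed less. Rpl36al had a median ratio of -0.55 over sorted and 0.01 over tumor types, Rpl7l1, a factor of ribosome assembly, -0.32 and -0.11, and Rps27l, a p53-induced copy of Rps27, -0.10 and 0.03. Rps27l differed widely between cell types: in the WT sorted library it was 0.92% of the UMIs of Rps27l and Rps27 together in B cells and 28.4% in M1 macrophages. Rps27rt had -0.47 in the sorted types. Rpl3l reached the minimum of 20 UMIs over both libraries only in sorted M2 macrophages, with 27 in WT and 13 in KO, and Rpl39l reached it in no type. Of the RP genes that the naming rule leaves out, Fau, which encodes Rps30, had a sorted median of -0.57 and was below 0 in 14 of 14 types. Rack1, a scaffold on the small subunit, had -0.02. Their tumor medians were -0.18 and -0.15.

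Other genes of the translation machinery were compared in lists. The 18 elongation factors and other genes known for a TOP motif had medians of -0.72 to 0.24 over the sorted and -0.64 to -0.06 over the tumor types. Eif3h and Eef1d were lowest in the sorted types with -1.30 and -1.03, and Pabpc1 and Nap1l1 highest with 1.11 and 0.92. The 25 initiation factors had sorted medians of -0.18 to 0.34, and the 30 genes of ribosome biogenesis -0.49 to 0.42, with Nhp2 at -0.73 and Ubtf at 0.66. The 16 regulators of RP genes, such as Rheb (-0.36) and Eif4ebp2 (1.13), had medians of 0.31 to 1.01, and the 11 genes of ribosome quality control 0.35 to 1.49. Not every gene was measured in every sorted type. The fewest were 9 of the biogenesis, 8 of the regulator and 4 of the quality control genes. The 1.49 is the median of those 4, in cancer stem cells. On the same scale the canonical RP genes had a median below 0 in 13 of 14 sorted types, and all genes measured had medians of 0.19 to 0.57. Relative to the median gene, the medians of the elongation and initiation lists were below 0 in 14 of 14 sorted types. On that scale the biogenesis list was below 0 in 12, the regulators in 1 and the quality control genes in 2 of these types.

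Mitochondrial ribosomal proteins, which form the separate ribosome of mitochondria, were also compared. Of the 78 genes, 25 to 78 were measured in a sorted and 44 to 78 in a tumor type. Scaled to total UMIs, they had medians of -0.70 to -0.25 in the 14 sorted types, below 0 in all 14, and of -0.10 to 0.21 in the 7 tumor types. Relative to the median gene they were below 0 in all of these, at -1.13 to -0.45 for the 14 sorted types and -0.35 to -0.16 for the 7 tumor types. Mrps16 and Mrpl30 were lowest in the sorted types with -1.07 and -1.03, and Mrpl52 was highest with 0.11. Whether the lists differ between preparations was not tested.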

How the data were processed

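The deposited table held, per the file itself, natural log values of 1 plus 10000 times a gene's UMI count over the cell's total, made by the authors. Cell Ranger 6.0.1, Seurat 4.0.5 and build mm10 are named in the submitters' processing notes. UMI counts were recovered from the deposited natural log values: all 60957742 nonzero values were whole within 0.01 UMI, in 20376 cells of at least 500 UMIs.

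Counts were summed per gene, the authors' cell type and library, and scaled to all UMIs. Types with at least 50 cells in both libraries were compared, for genes with at least 20 UMIs over both, at 1.5-fold. The 95% intervals of ratios are conditional binomial and those of shares Clopper-Pearson. With 1 library per group no test was made. The naming rule took the 5 lowest and 5 highest canonical members of a comparison, applied here to the median ratio over the types of a preparation, the 5 most and 5 least varying within the RP pool, Rplp0, Rplp1, Rplp2, Rpsa, the paralogs, the 10 genes most and 10 least like the RP share and the 2 lowest and 2 highest of each list, of which some are printed and some are not reported here. Members and lists were chosen with earlier results of these data known. Doublets were left in, except in 1 alternative. Alternatives changed weighting, cell filter, doublets, denominator, scaling, fold, count minimum and depth. The denominator of short genes, the removal of shared barcodes and the length bins were chosen after seeing the data. The scripts were tested on simulated data. Python 3.11.15, numpy 2.4.6, scipy 1.17.1, pandas 2.3.3 and matplotlib 3.10.9 were used.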

Additional observations from a re-analysis of the deposited data

Results flagged for a closer look

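The RP share went against the direction of most cell types in neutrophils of the sorted libraries, where KO was 1.01 percentage points above WT, and in cells named cancer stem cells of the tumor libraries, where KO was 0.309 points above WT. The tumor cancer stem cells had 18.4% mitochondrial UMIs in WT and 10.9% in KO, and without mitochondrial and hemoglobin UMIs in the denominator the difference KO minus WT there was -3.16 points. With that denominator sorted neutrophils had a share 0.841 points higher in KO.

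Rpl37a had a median log2 ratio of 0.69 over the 14 sorted and of -0.81 over the 7 tumor cell types, opposite in direction. The sorted median also covers T cell, NK cell, myeloid dendritic cell and neutrophil types, which were not compared in the tumor libraries. These differences were not tested.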

How the results depend on the processing

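No paired analysis was possible because the cells carry the name of their group and not of a sample, and for the same reason no replicate could be left out. Of 19 pairs, 3 had the higher RP share in the sorted library. This count was 1 with equal weight per cell, 0 of 14 with a stricter cell filter, 1 of 16 without doublet candidates and 1 without mitochondrial and hemoglobin UMIs in the denominator. The 41 canonical genes lower in the majority of sorted types became 8 with a 2-fold threshold and 25 with the denominator of short genes. The 5 of the tumor types became 9 scaled to UMIs outside the RP genes, 26 relative to the median gene, 0 with a 2-fold threshold and 2 without doublet candidates. The cause was not tested.

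KO minus WT differences in RP share turned to higher in the sorted libraries in CD8+ effectors (8.07 points), NK cells (1.21) and hematopoietic stem cells (0.659) in their shallower bins, in M2 macrophages with short genes as denominator (1.34) and at 20000 UMIs or more (0.68), in cancer stem cells with short genes (0.909) and in neuroblastoma cells without doublet candidates (2.16). Neutrophils of under 2000 UMIs turned to -1.47. In the tumor libraries M1 macrophages of under 2000 UMIs had 0.0689, and cancer stem cells had -3.82 with the stricter filter, -3.16 without mitochondrial and hemoglobin UMIs, -0.2 under 2000 and -2.37 at 5000 to under 10000 UMIs. Of the share differences recomputed, 43 stayed within the limits set, 148 moved and 13 reversed. Of the ratios of single members recomputed, 1380 stayed, 103 moved and 0 reversed. The limits were unlike: share differences were held to counting error, and member ratios to the wider standard deviation over cell types. A member could count as reversed only where its main median ratio was at least 1.5-fold. Sign changes of smaller ratios, such as that of Rplp2 relative to the median gene, are therefore not in this count. The doublet rule takes 26.3% to 78.3% of a library's cells and is too broad to read as a doublet rate. Whether the cells it removes are doublets was not tested. Depth limits the paralogs and the neutrophils, where Rpl22l1 had 14 UMIs in KO.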

Other observations

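Over 50 combinations of cell type and library with at least 50 cells, 2169 genes outside the family were ranked by the Pearson correlation of their level with the RP share. Eef1a1 had the highest value (0.91), followed by Cox7a2l (0.86), Eef1b2 (0.86), Eif3e (0.85), Naca (0.84), Eif3m, Rack1 and Eif3f (0.83 each), Fau and Eef1d (0.80 each). The lowest were Litaf (-0.69), Zfand5, Zeb2, Prkcd (-0.66), Adipor1, Tpd52, Xbp1, Sdcbp, Marcks and Lilrb4a (-0.61). Of the elongation and TOP genes 15 of 18 were above 0.5, as were 8.67% of all genes ranked. The points share libraries and depth, so these values describe the data without a test.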
